A study of Mus musculus with 6 samples.

Results

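The mouse Zfp genes encode zinc finger proteins, and 99 of them carried a protein-altering variant call in exome sequencing of bone marrow and ear from 3 mice with the P95H change of the splicing factor Srsf2. A gene was taken when its name was Zfp followed by digits and when any deposited call in it was annotated with moderate or high impact, which means a changed amino acid, a stop codon, a frameshift, an in-frame gain or loss, or a changed splice site. In all, 7552 genes had a coding call in these files and 129 of them were Zfp genes. Of the 99 genes, 81 had a site in the lists of all variants and 18 only in the somatic lists. All 99 were found in RefSeq, 3 of them by an older name, and positions are in build GRCm38.

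Each animal gave whole bone marrow and ear, so that there were 6 samples, 3 of each tissue, with ear as the germline reference. The mice were C57BL/6, animals 54 and 108 male and animal 136 female, all carried P95H together with a tamoxifen-induced Cre recombinase, and all had been given tamoxifen. They were sampled when moribund, 50 to 60 weeks after tamoxifen by the protocol, whereas the labels give 50 to 60 weeks as their age. The sample labels give all 3 the R26CreERT2 driver, which is built into a widely active locus, whereas the design text gives 1 of them hScl-CreERT with R26eYFP and does not say which. No mouse without P95H or tamoxifen was sequenced here, so the animals show no contrast of genotype. Whole marrow and ear are mixtures of cells, and fewer cells with a variant and fewer variant copies per cell cannot be told apart. The material is DNA, so that no marker gene could be checked for the tissue.

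Most proteins of this family bind DNA through C2H2 fingers, short loops in which a pair of cysteines and a pair of histidines hold a zinc ion. Many also have a KRAB domain that recruits Trim28 and Setdb1, which place repressive histone marks on transposable elements and on some genes. The genes often stand in clusters that arose by tandem duplication, and copies in such a cluster resemble each other. Other members are named Zfp but do other work: Zfp598 is a ubiquitin ligase that acts on collided ribosomes, and Zfp207 acts at the mitotic spindle.

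Sites are called inherited here when the same change was listed in both tissues of an animal, and private when it was listed in one tissue of that animal only. A private site may still have gone uncalled in the other tissue, because a list gives no depth where nothing was called. The 81 genes held 253 distinct protein-altering sites. Of these, 170 were inherited in at least 1 animal and 83 never were. Missense changes made up 167 of the 170 and 67 of the 83. High-impact changes numbered 2 among the first and 12 among the second. In all other genes, missense changes made up 4337 of 4657 inherited sites and 1870 of 2447 never inherited. High-impact changes there numbered 216 and 475, so they were also more frequent among sites never inherited. Of the 253 sites, 76 were listed in 1 sample, 136 in 2 samples, 25 in 4 samples and 5 in all 6.

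The promoters below show what an inherited difference looks like at the bases. They are stretches of RefSeq promoter (GRCm38.p6) of 6 genes of the chromosome 13 cluster described next, read on the gene's own strand, 5′ to 3′, with the base that varied in capitals. They were picked as single base changes upstream of the start with enough reads in both tissues.
Zfp712, chr13:67061196-67061224, capital T with a C allele: gaaatgtagtctcgTccgcggcgacgtca
Zfp708, chr13:67081563-67081591, capital G with a T allele: tgtagtctctcttaGcatgactccgctag
Zfp455, chr13:67194451-67194479, capital A with a T allele: ggatatgtagtccaAgcaactgtgccatc
Zfp458, chr13:67269067-67269095, capital A with a T allele: tcgcttctcccccaAagttaggggactgt
Zfp953, chr13:67360643-67360671, capital A with a C allele: tggaagttcttcgcActgatttgtgggaa
Zfp456, chr13:67375799-67375827, capital A with a G allele: atgtagtccgcaccActgtgaccactggg

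Each of the 6 was listed in marrow and ear of animal 54 and in no other sample. In Zfp455 the T allele had 46 of 73 marrow reads (63.0%) and 69 of 120 ear reads (57.5%). In Zfp953 the C allele had 35 of 58 marrow reads (60.3%) and 59 of 138 ear reads (42.8%). In Zfp712 the C allele had 8 of 22 marrow reads (36.4%) and 12 of 36 ear reads (33.3%). Both alleles were thus read in both tissues at each of these sites. Of 95 promoter windows of the 99 genes, from 250 bases before to 50 after a start, 16 held an inherited site in animal 54 (16.8%), 2 in animal 108 and 1 in animal 136. Of all 32851 RefSeq windows, 0.807% held one in animal 54, 1.56% in animal 108 and 0.359% in animal 136. Of the 19 windows in the chromosome 13 cluster, 14 held an inherited site in animal 54 and none in animals 108 and 136. Because the 99 genes were taken for carrying a protein-altering call, their windows are not a neutral draw from all RefSeq windows. Whether Zfp promoters vary more than other promoters was therefore not tested by these shares.

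The variable Zfp genes differed from animal to animal. Animal 54 had 106 inherited protein-altering sites in 33 Zfp genes, animal 108 had 64 in 14 and animal 136 had 38 in 9. All other genes together had 2035 such sites in 756 genes, 2931 in 1103 and 605 in 242, in the same order. Of the 170 inherited Zfp sites, 94 were inherited in animal 54 alone, 36 in animal 108 alone, 7 in animal 136 alone, 21 in animals 108 and 136, and 5 in all 3. How the inherited sites of other genes were shared between animals was not counted.

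**Figure D1:**
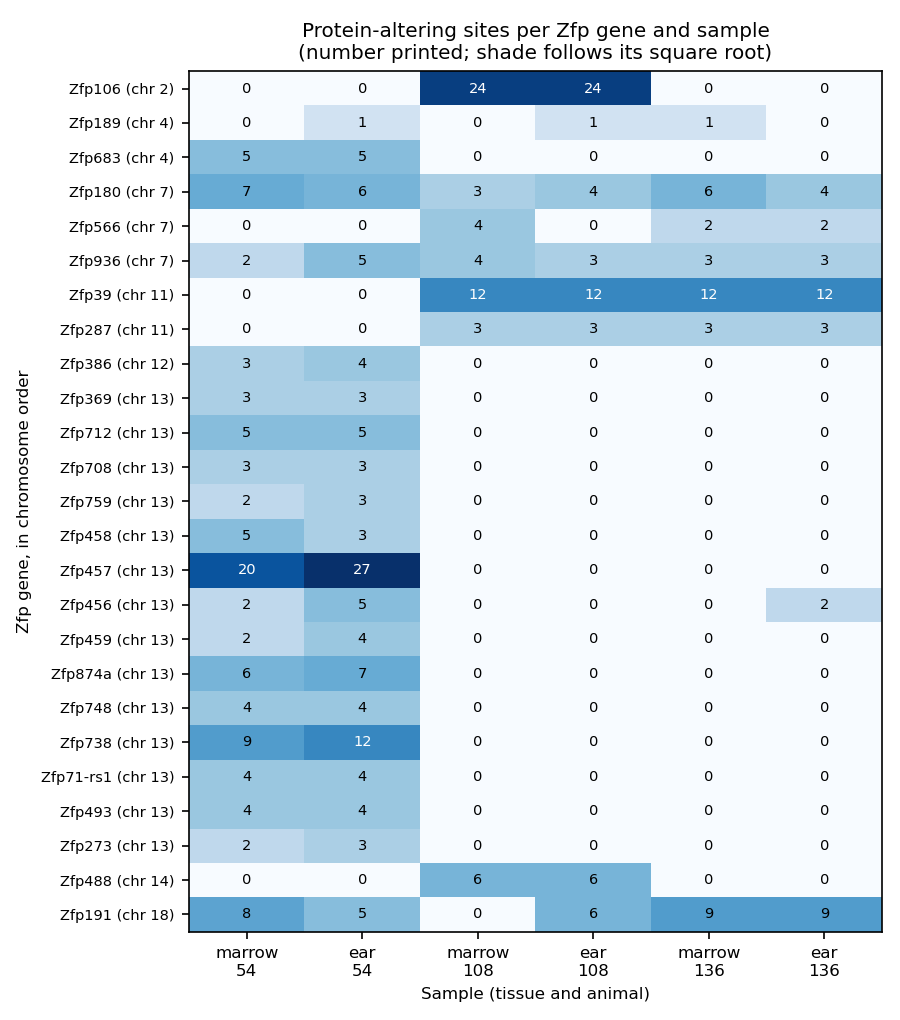
Number of protein-altering sites (printed, with shading by its square root) in Zfp genes with at least 3 distinct sites, in chromosome order from top to bottom, for marrow and ear of the 3 animals. Zfp457 and its neighbours on chromosome 13 are filled in animal 54, Zfp106 has 24 sites in animal 108 and none elsewhere, and Zfp39 has 12 in animals 108 and 136.

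Animal 54 differed from the others at a cluster of 19 of the genes on chromosome 13, from 66670274 to 67827000. This is the region of the regulators of sex limitation, KRAB proteins known for repressing male-specific genes of the mouse liver, and 14 of the 19 carry an Rslcan synonym in RefSeq. It held 74 of the 106 inherited sites of animal 54 (69.8%), spread over 18 of the 19 genes. Animals 108 and 136 had no inherited protein-altering site in it, in Zfp genes or in others. Animal 54 also had 18 inherited sites there in genes with other names, among them A530054K11Rik, which RefSeq now calls Zfp729a.

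Zfp457 was the gene with most sites, 28 in all, of which 19 were inherited in animal 54. The deepest was D32E, with 158 of 394 reads in marrow (40.1%) and 253 of 561 in ear (45.1%). At P584S near the other end of the protein the variant had 32 of 59 marrow reads (54.2%) and 27 of 59 ear reads (45.8%). Within the cluster Zfp738 followed with 12 sites, 9 of them inherited in animal 54. One of these was H595Y, which had 28 of 41 reads in marrow and 44 of 72 in ear. Zfp874a had 7 sites, Zfp456 had 6, and Zfp712 and Zfp458 had 5 each.

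Animal 108 was alone in carrying 24 protein-altering sites in Zfp106, an RNA-binding protein needed for the upkeep of motor nerve and muscle. In the transcript of 1888 residues, which holds all but 1 of them as annotated, the sites ran from residue 253 to residue 1608. At A717T the variant had 139 of 277 reads in marrow (50.2%) and 109 of 247 in ear (44.1%), and at I1608V it had 65 of 116 and 59 of 114. Changes on neighbouring bases were annotated one at a time, as at I1257N and I1257F, which share a codon. One of the 24 removed 9 bases of the coding sequence in frame. The stretch is shown on the genome's forward strand with the lost bases in capitals.
Zfp106, chr2:120524547-120524558: cctGGCAGTTCT
This loss had 23 of 58 reads in marrow and 20 of 61 in ear of animal 108. Zfp488, a factor of oligodendrocyte differentiation, had 6 inherited sites in animal 108 alone, with variant shares from 34.3% to 52.6%.

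Animals 108 and 136 shared inherited sites on chromosome 11 that animal 54 lacked. Zfp39 had 12 such sites, all listed in the 4 samples of these animals. At H265L, 1 of 2 sites of Zfp39 that replace a histidine, the variant had 122 of 282 reads in marrow and 134 of 255 in ear of animal 108. In animal 136 it had 130 of 283 in marrow and 99 of 194 in ear. Zfp692 and Zfp286 each had 2 sites in these 4 samples, and Zfp287 had 3.

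Zfp287 held the only stop codon among the inherited Zfp sites. R225* lies in a transcript of 274 residues and at the edge of an exon. The variant had 26 of 58 marrow reads (44.8%) and 10 of 36 ear reads (27.8%) in animal 108, and 20 of 57 (35.1%) and 20 of 37 (54.1%) in animal 136. The shares overlapped between tissues, with ear lower in one animal and higher in the other. The other inherited high-impact site was a change of the splice acceptor of Zfp566 at chromosome 7, 30078620. It had 9 of 17 marrow reads and 9 of 19 ear reads in animal 136, and 10 of 21 marrow reads in animal 108, where ear had no call.

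Zfp180 and Zfp936, both on chromosome 7, were the genes with sites listed in all 6 samples. Zfp180 had 3 such sites with mapping qualities of 41 and 42. At R225C the variant made up 41.5%, 31.7% and 37.6% of marrow reads and 46.4%, 59.3% and 68.6% of ear reads in animals 54, 108 and 136. Marrow was below ear in all 3 animals. How often the tissues separate in this way among all sites listed in all 6 samples was not counted. At R272H the shares lay between 36.2% and 45.5% and at V280M between 33.3% and 50.8%, with the tissues overlapping at both. Zfp936 had A41T, between 38.2% and 56.4%, and G452R, between 35.2% and 52.4%, also overlapping. Its mapping qualities were 23 to 25 at A41T and 30 to 33 at G452R.

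Some sites recurred at low shares of the reads. Zfp191, a regulator of myelination whose symbol in RefSeq is Zfp24, had 10 protein-altering sites, of which 4 were inherited in animal 54 and 9 in animal 136. At E98K the variant had 23 of 128 marrow reads and 34 of 178 ear reads in animal 54. It had 34 of 143 and 33 of 100 in animal 136, and 17 of 96 ear reads in animal 108. Over the gene the shares ran from 17.7% to 38.6%. L278F of Zfp628 was listed in 5 samples, at 20% to 23.1% of 13 to 44 reads. G702R of Zfp598 was listed in 4 samples at 17.0% to 30%. Inherited sites under 30% in both tissues made up 3.77%, 1.56% and 7.89% of the Zfp sites in animals 54, 108 and 136. In all other genes they made up 4.23%, 2.83% and 11.1%.

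Among all coding sites of animals 54, 108 and 136 that were inherited, the protein-altering share was higher in Zfp genes than in other genes. It was 106 of 196 protein-altering and synonymous sites in animal 54 (54.1%, 95% Clopper-Pearson interval 46.8 to 61.2), 64 of 122 in animal 108 (52.5%, 43.2 to 61.6) and 38 of 67 in animal 136 (56.7%, 44.0 to 68.8). In all other genes it was 41.1% of 4956 sites, 36.9% of 7952 and 43.7% of 1384. Vomeronasal receptor genes, a multigene family among these others, had shares of 52.9%, 60% and 52.9% over 17, 25 and 17 sites, and olfactory receptor genes 66.7%, 40.3% and 37.5% over 9, 419 and 112 sites. For the Zfp genes the mean was 54.4% ± 2.15 (SD, n = 3) against 40.5% ± 3.46 (SD, n = 3) for all other genes, a difference of 13.9 points ± 1.49 that had the same sign in 3 of 3 animals. The exact sign-flip permutation test over animals, two-sided, gave p = 0.25, which is the smallest value that 3 animals allow, and 0.417 after Benjamini-Hochberg adjustment over the 10 such tests made here. The difference was 7.20 points when sites within 100 bases of each other were counted as 1, and 10.2 points without the Zfp gene with most sites in each animal. Animals 108 and 136 share many of these sites and are not independent draws of them.

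Changes that took away a cysteine or histidine were counted because these residues hold the zinc, although which of them lie in a finger was not determined here. They were 13 of the 167 inherited missense sites (7.78%, 95% Clopper-Pearson interval 4.21 to 12.9) and 9 of the 67 that were never inherited (13.4%, 6.33 to 23.97). In all other genes they were 5.21% of 4337 and 6.63% of 1870. The intervals for the Zfp genes overlap each other and hold the values of the other genes. Inherited examples were C222Y of Zfp938 in animals 54 and 108, C244S of Zfp287 in animals 108 and 136, and C1197S of Zfp106 in animal 108. H133P of Zfp683, known as Hobit, a factor of tissue-resident lymphocytes, had 87 of 224 marrow reads and 161 of 407 ear reads in animal 54.

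**Figure D2:**
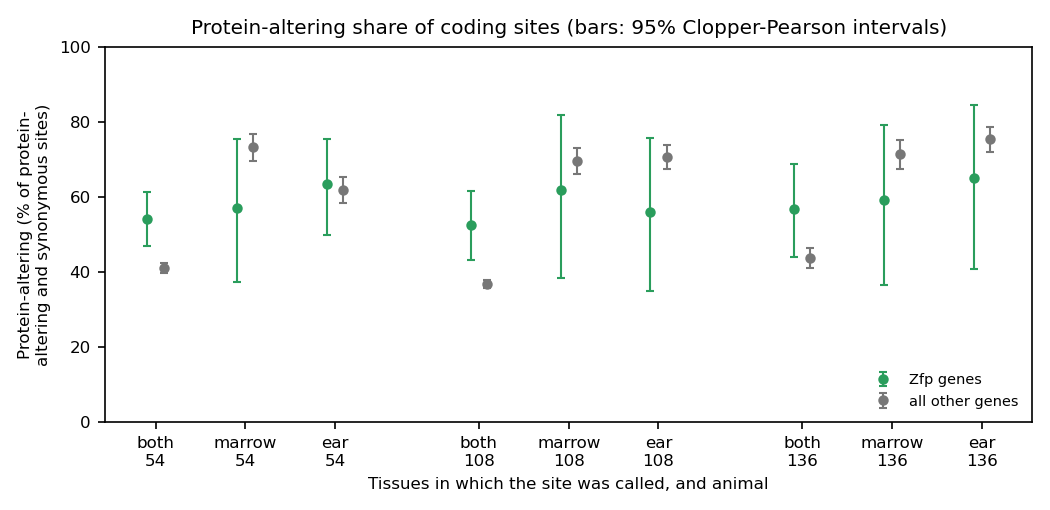
Protein-altering sites as a percentage of protein-altering and synonymous sites, with 95% Clopper-Pearson intervals, in Zfp genes (green) and all other genes (grey), for sites called in both tissues, in marrow only or in ear only of each animal. For sites in both tissues Zfp genes lie at 52.5% to 56.7% and other genes at 36.9% to 43.7%, whereas for private sites the Zfp intervals are wide and hold the values of the other genes.

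The private sites differed from the inherited ones in read number and variant share more than in mapping quality. Animal 54 had 16 private protein-altering Zfp sites in marrow and 38 in ear, animal 108 had 13 and 14, and animal 136 had 13 in each tissue. On the log2 scale marrow over ear came to -0.45 ± 0.69 (SD, n = 3), and the exact sign-flip permutation test with each animal as a pair gave p = 0.5. Animal 54 decided this ratio, which was -0.05 without it, and with at least 20 reads at each site it was -1.05. The tissue with more private Zfp sites in animal 54 was also the deeper one, with a median of 114 reads at coding sites in ear and 80 in marrow. The part of depth in the count was not tested.

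The median variant share of private sites was 25.3%, 25.96% and 19.3% in animals 54, 108 and 136, and that of inherited sites 47.6%, 45.8% and 41.0%, each the mean of the tissues. The difference was -21.2 percentage points ± 1.27 (SD, n = 3), lower in 3 of 3 animals, with p = 0.25 by the exact sign-flip permutation test (adjusted 0.417). Private sites were covered by a median of 24.2 reads ± 6.38 (SD over animals) and inherited sites by 114 ± 6.29, a log2 ratio of -2.26 ± 0.45 that was below 0 in 3 of 3 animals. A site is more easily missed in one tissue where reads are few or its share is low, so the private class favours both by its definition. In all other genes, private protein-altering sites had median shares of 16.7% to 23.1% in the 6 samples, and inherited ones 46.8% to 47.2%. Their median reads were 18 to 26 and 104 to 180. The part of depth in the share was not tested. With at least 20 reads at each site the difference in share was -20.7 points and the log2 ratio of depth -1.41.

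**Figure D3:**
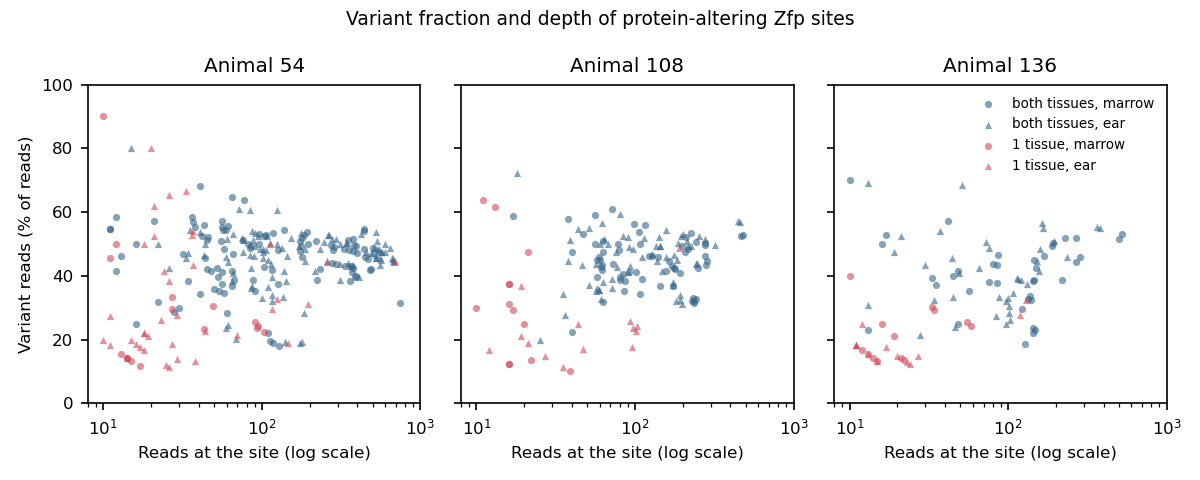
Variant reads as a percentage of reads against the number of reads (log scale) at each protein-altering Zfp site, by animal, with sites called in both tissues in blue and in 1 tissue in red, and with circles for marrow and triangles for ear. Red points gather at the left and low, with medians of 19.3% to 25.96%, and blue points spread around medians of 41.0% to 47.6% at larger read numbers.

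Mapping quality, the root mean square over the reads at a site on a Phred scale, reaches 42 at most in these lists. Its median over private Zfp sites was 39.25 in both animals 54 and 108 and 41.5 in animal 136. Over inherited sites it was 39.5, 41.25 and 40 in the same order. The difference was -0.25 ± 1.75 (SD, n = 3), within the spread between animals, and the exact sign-flip permutation test gave p = 0.75. Private Zfp sites had more often a quality under 30, at 15.5% against 10.4% in animal 54, 7.69% against 2.34% in animal 108 and 11.5% against 3.95% in animal 136. That difference of 6.01 points ± 1.38 (SD, n = 3) had one sign in 3 of 3 animals and p = 0.25 by the exact test, unadjusted. In all other genes, 3.59% to 12.7% of private protein-altering sites were under 30 in the 6 samples, and 7.03% to 18.7% of inherited ones. There the private share was the higher one in ear of animal 54 and marrow of animal 108, and the lower one in the other samples.

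**Figure D4:**
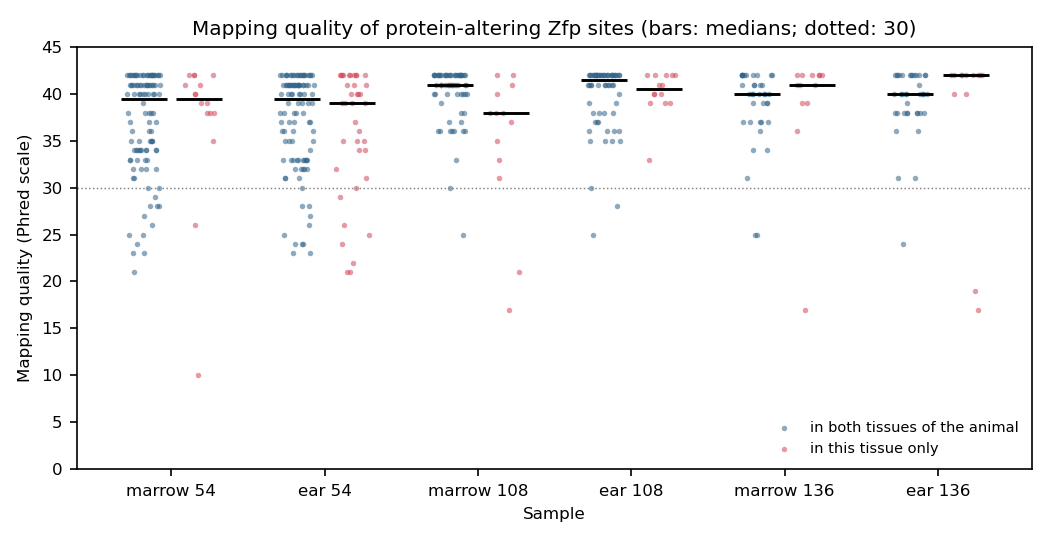
Mapping quality (Phred scale) of each protein-altering Zfp site in the 6 samples, for sites called in both tissues of the animal (blue) and in the tissue shown only (red), with black bars at the medians and a dotted line at 30. The medians of both classes lie between 38 and 42 in every sample, and the inherited sites of animal 54 reach down to 21 in marrow and 23 in ear.

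Mapping quality depended on the gene. Among genes with at least 5 sites, low medians were those of Zfp456 (22), Zfp936 (30), Zfp738 (32) and Zfp874a (33), of which all but Zfp936 lie in the chromosome 13 cluster. The highest were those of Zfp180 (42) and Zfp488 (42), followed by Zfp106, Zfp683 and Zfp458 at 41, the last of them in the cluster. In the cluster itself the gene medians ran from 17 in Zfp640 to 42 in Zfp874b and Zfp953. The inherited protein-altering Zfp sites of animal 54 had a median of 35.5 in marrow and 37 in ear inside the cluster, and of 41 in both tissues elsewhere. Genes with other names in the same stretch had medians of 34 in both tissues.

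Set against all other genes, inherited coding sites of Zfp genes had a median quality of 39 against 41 in animal 54, 42 against 42 in animal 108 and 41 against 41 in animal 136. The mean difference was -0.67 ± 1.15 (SD, n = 3; exact sign-flip permutation test, p = 1). It came from animal 54 alone and was 0 without it. In olfactory receptor genes, another multigene family, inherited protein-altering sites had medians of 36 over 169 sites in animal 108 and 30 over 42 sites in animal 136, and of 42 over the 6 sites of animal 54. Those of vomeronasal receptor genes had medians of 24 to 26 in the 6 samples, over 9 to 15 sites.

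Private Zfp sites were of more than one kind. Of the 107, counted once per sample, 31 were also listed in a sample of another animal and 76 were listed in 1 sample only. In 41 cases the gene also had inherited sites in the same animal. These 41 had a median of 27 reads, a variant share of 30.6% and a mapping quality of 38. The other 66 had a median of 19 reads, a share of 18.2% and a mapping quality of 41, and in 41 of them no more than 4 reads carried the variant. Of the 107 sites, 34 lay within 100 bases of an inherited site of the same sample, 10 of 16 of them in marrow of animal 54 and none of 13 in ear of animal 136. In 62 of the 107 all variant reads had come from the same strand, and 49 of the 107 had no more than 4 variant reads. The strand count was not taken for inherited sites or for other genes. The chromosome 13 cluster held 31 of the 107, of which 20 were in ear of animal 54.

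The genes with most private sites were Zfp191 with 11, Zfp457 with 9, Zfp180 with 8, Zfp456 with 5, and Zfp566, Zfp640 and Zfp936 with 4 each. In Zfp457, 8 of the 9 were in ear of animal 54. P233L, T229A and L225V, inside 26 bases, had 9 of 18, 13 of 21 and 17 of 26 ear reads there. A second group, 4 substitutions and a frameshift at residues 629 to 631, had 3 or 4 variant reads of 16 to 19. Zfp566 had 4 private sites within 9 bases in marrow of animal 108, 2 of which were inherited in animal 136. All 4 had 16 to 21 reads.

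Changes that add or remove bases in Zfp genes were mostly private. Frameshifts and in-frame gains or losses numbered 0 and 1 among the inherited Zfp sites, and 5 and 4 among those never inherited. In all other genes these numbers were 76 and 106 among inherited sites, and 87 and 105 among those never inherited. The stretches are shown on the forward strand with added bases in capitals, to let the inserted sequence be compared between calls.
Zfp180, chr7:24104403-24104404: aCAGGGACCTGTGGg
Zfp457, chr13:67292622-67292622: aTCTTGTGTTT
Zfp459, chr13:67408273-67408276: ctgaGTGA
Zfp513, chr5:31200671-31200672: ctTAGTACTACCAT
Zfp507, chr7:35793532-35793532: gCATTTTG
The Zfp180 insertion of 13 bases falls on the splice acceptor of an exon and was listed in marrow of animals 54 (9 of 27 reads) and 136 (10 of 34) and in neither ear. A single base change was listed at the same position in these marrows, at 8 of 27 and 10 of 33 reads. The Zfp459 insertion had 22 of 33 ear reads in animal 54 and the in-frame Zfp513 insertion 15 of 70. Those in Zfp457 and Zfp507 had 3 of 16 and 2 of 11 ear reads, in animals 54 and 136. The private frameshift with most reads was in Zfp957, where an added C in a run of C had 92 of 189 ear reads in animal 108. Private high-impact sites also included stop codons in Zfp148 (S596*, 3 of 15 ear reads), Zfp719 (K348*, 2 of 11) and Zfp180 (C544*, 3 of 26), all in ear of animal 54.

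From inherited to private sites, the protein-altering share rose by 6.16, 6.49 and 5.33 points in Zfp genes of animals 54, 108 and 136. The mean was 5.99 points ± 0.599 (SD, n = 3; p = 0.25 by the exact sign-flip permutation test, adjusted 0.417). It was 12.4 points with at least 20 reads at each site, 10.1 with neighbouring sites as 1, 9.06 for sites private to 1 of the 6 samples and 3.46 for single base changes alone. In all other genes the share rose by 26.5, 33.3 and 29.7 points. The difference between these rises was -23.8 points ± 3.25 (SD, n = 3), with one sign in 3 of 3 animals and p = 0.25 by the same exact test. Zfp genes made up 3.34% of the protein-altering sites private to marrow and 7.71% of those private to ear in animal 54. The corresponding shares were 2.59% and 2.58% for animal 108, and 3.33% and 2.40% for animal 136. Of the inherited ones they made up 4.95%, 2.14% and 5.91%. The mean difference, private minus inherited, was -0.67 points ± 2.05 (SD, n = 3; exact test, p = 1), and it turned to 0.51 without animal 136.

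No inherited Zfp site differed between marrow and ear after adjustment. Fisher's exact test on variant and other reads was run at every site with at least 10 reads in each tissue and adjusted over all inherited sites of the animal. None of 106, 64 and 38 protein-altering Zfp sites passed in animals 54, 108 and 136, where 0.0346%, 0.0327% and 0.0181% of all 31835, 48977 and 11026 sites did. At an unadjusted p under 0.05 there were 17 (16.04%), 5 (7.81%) and 4 (10.5%) of the Zfp sites, against a background of 8.41%, 7.43% and 6.22%. Of the 17 in animal 54, 10 were higher in marrow and 7 lower. Of these 17, 7 lay in Zfp457, where neighbouring sites share reads.

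The lowest adjusted p in animal 54, 0.213 by Fisher's exact test, was that of P47R in Zfp593, a ribosome biogenesis factor, with 42 of 65 marrow reads and 32 of 87 ear reads. In animals 108 and 136 the lowest values were 0.248 and 0.242. R225C of Zfp180 had an unadjusted exact p of 0.00135 in animal 108 and 6.99e-04 in animal 136. An exact conditional test with animal as stratum, over the 4444 sites listed in all 6 samples, gave R225C p = 3.53e-05 and an adjusted p of 0.0549, and called 0.0225% of these sites and none of the 5 Zfp sites. Only R225C of the 5 had an unadjusted p under 0.05 in that test, and the share of all 4444 sites under that limit was not taken. The mean marrow share of R225C was 37.0% ± 4.93 (SD, n = 3) against 58.1% ± 11.1 (SD, n = 3) in ear. The difference was -21.1 points ± 14.2 (exact sign-flip permutation test, unadjusted p = 0.25). A41T of Zfp936 had 38.6% in marrow against 56.4% in ear of animal 136 (exact Fisher p = 6.25e-04) and 53.3% against 38.2% in animal 108 (exact Fisher p = 0.00325), in opposite directions, and neither passed after adjustment.

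The somatic lists, in which the authors set marrow against ear of each animal, named 30 of the 99 genes. Of these, 7 also had an inherited protein-altering site in any animal, and the same share over all genes of the somatic lists was not counted. VarScan2 had 11 protein-altering somatic calls in 7 Zfp genes (exact 95% Poisson interval 5.49 to 19.7): 8 in animal 54, 1 in animal 108 and 2 in animal 136, or 3.67 ± 3.79 per animal (SD, n = 3). Strelka had 24 calls in 22 genes (15.4 to 35.7): 7, 4 and 13 in the same order, or 8 ± 4.58. The callers shared no site and no gene among these calls. How often they did so over all genes was not counted. Without animal 54 VarScan2 had 3 calls, and without animal 136 Strelka had 11.

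Most VarScan2 calls in Zfp genes had variant reads in ear as well, and the same share over calls in all genes was not counted. In the authors' deposited read counts, 9 of the 11 had at least 1 such read, with a median share of 28.6% in marrow and 11.6% in ear. In Zfp191 the changes Q61R, R52L, E49K and P48L were all called in animal 54, with 21 to 23 variant reads of 87 to 96 in marrow and 15 to 17 of 121 to 131 in ear. The same 4 changes were listed in both tissues of animal 136, and E49K and P48L also in ear of animal 108. They lie within 40 bases of each other, so that the 4 calls rest on overlapping reads. E213K of Zfp534 had 27 of 122 marrow reads and 46 of 334 ear reads, and E173K of Zfp936 had 19 of 50 and 9 of 54 in animal 136.

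Without a variant read in ear there remained H358Y of Zfp59 in animal 54, with 4 of 14 marrow reads and 0 of 43 in ear (3 reads of 43, taken as the limit of a count of 0, would be 6.98%, and the exact interval reaches 8.22%), and a frameshift of Zfp457 in animal 136. The frameshift, at residue 634 of 647, had 4 of 10 marrow reads and 0 of 12 in ear, for which the same limit is 25% and the exact interval reaches 26.5%. An insertion at a splice acceptor of Zfp385c in animal 108 had 31 of 92 marrow reads and 14 of 81 ear reads. One further site, S199N of Zfp640 in animal 54, was marked as loss of heterozygosity, with 9 of 12 marrow reads and 9 of 26 ear reads. Of the 11 calls, 8 fell in genes that also had inherited sites in any animal, although Zfp457 had none in animal 136. The corresponding share over VarScan2 calls in all genes was not counted. A deposited somatic p-value under 0.01 was given for 2 of the 11, P48L of Zfp191 and H358Y of Zfp59.

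**Figure D5:**
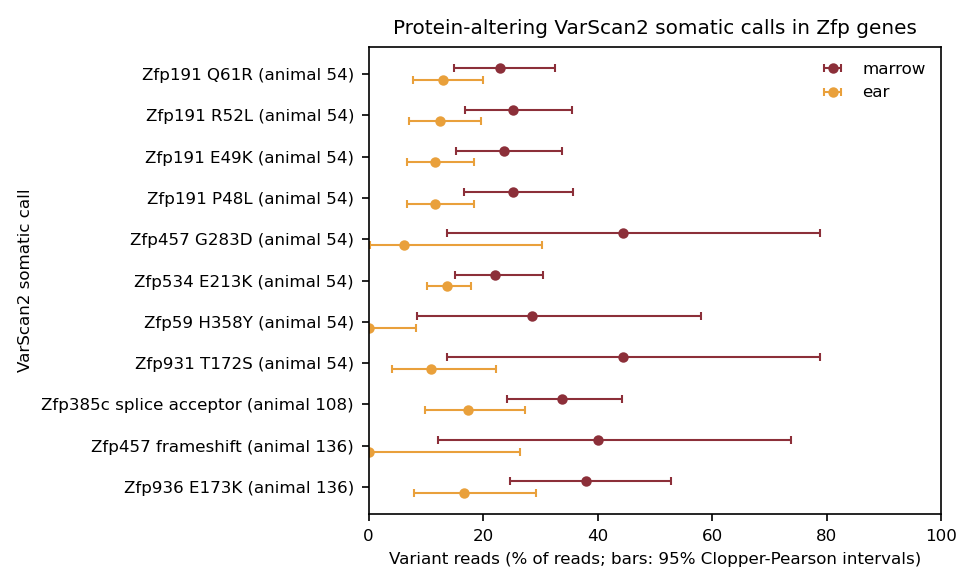
Variant reads as a percentage of reads in marrow (dark red) and ear (orange) for the 11 protein-altering VarScan2 somatic calls in Zfp genes, from the authors' read counts, with 95% Clopper-Pearson intervals. Marrow lies between 22.1% and 44.4%, and ear is above 0 at 9 of the 11 sites.

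Most Strelka calls in Zfp genes lay in genes without an inherited protein-altering site. Of the 24 calls, 3 lay in genes with such a site in any animal. Of these, only the call in Zfp7 lay in a gene with such a site in the called animal. Among the 24, 1 was also in the all-variant list of its marrow: Y381* of Zfp109 in animal 136, with 4 of 16 reads. How often Strelka calls of all genes lay in genes with inherited sites, or in the list of their marrow, was not counted. The Strelka lists give no read count, so the depth behind the 24 calls is unknown. Zfp341, a transcription factor of the STAT3 gene, was called in animals 54 (P274L) and 136 (A821T), and Zfp618 in animals 108 (G123R) and 136 (P95L). No change recurred at the same position. The high-impact calls were Y381* of Zfp109, Q196* of Zfp648, and frameshifts of Zfp786 and Zfp462, the last a large protein that guards against loss of heterochromatin. Their inserted bases are shown in capitals on the forward strand, with the in-frame insertion called in Zfp513.
Zfp786 in animal 108, chr6:47820623-47820623: cTTCTCTAT
Zfp462 in animal 136, chr4:55007733-55007733: gGAGAT
Zfp513 in animal 136, chr5:31199787-31199787: gGAAAGA
The deposited quality of the 24 calls ran from 15 to 63 with a median of 32. Among the 21 single base calls, counted from the pyrimidine of the pair, 9 were C-to-T, 6 C-to-A, 2 C-to-G, 2 T-to-A and 2 T-to-C.

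Zfp genes made up 0.587%, 0.631% and 1.503% of the protein-altering Strelka calls in animals 54, 108 and 136, out of 1192, 634 and 865. Among inherited sites they made up 4.95%, 2.14% and 5.91%. The difference was -3.43 points ± 1.66 (SD, n = 3), lower in 3 of 3 animals, with p = 0.25 by the exact sign-flip permutation test (adjusted 0.417). Of the protein-altering VarScan2 calls they made up 8 of 65 (12.3%, 95% Clopper-Pearson interval 5.47 to 22.8), 1 of 69 (1.45%, 0.0367 to 7.81) and 2 of 21 (9.52%, 1.17 to 30.4). These intervals hold the inherited shares in animals 108 and 136, and in animal 54 the lower bound of 5.47 lies above 4.95%, with 4 of the 8 calls in Zfp191.

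The partners of KRAB proteins were looked at in the same lists. Of 16 corepressor genes, from Trim28 and Setdb1 to the heterochromatin proteins, DNA methyltransferases and deacetylases, 2 had an inherited protein-altering site, both in animal 108. These were Chd3, a remodelling ATPase, with E1753D in 83 of 193 marrow reads and 88 of 185 ear reads, and Dnmt1, the maintenance methyltransferase, with I1357K in 9 of 55 and 11 of 51. I1357K was also listed in ear of animal 54, at 17 of 83 reads. None of the 16 had a VarScan2 somatic call. Strelka had calls in 6 of them, with 5 in the de novo methyltransferase Dnmt3a: R362H in animal 108, A42S and A382T in animal 136, and H584N and L633Q in animal 54. None of these 5 was in an all-variant list, where Dnmt3a had no inherited or private protein-altering site. Trim28 and Setdb1 had no protein-altering call in any list. Among 37 genes of other C2H2 families with a coding call (Zscan, Zkscan, Zbtb, Klf, Ikzf, Prdm, Zic and Zfhx), 6 had an inherited protein-altering site, 12 a private one, 1 a VarScan2 call and 14 a Strelka call. Of the 129 Zfp genes the corresponding numbers were 45, 54, 7 and 22. The corresponding shares of all 7552 genes with a coding call were not counted. These counts, like those of the 16 corepressor genes, therefore have no background to be read against.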

How the data were processed

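Exome capture (50 Mb mouse exon kit, stated mean depth 100) of DNA had been sequenced for 6 samples, per the labels' protocols. Tools named in the submitters' processing notes are FastQC, Bowtie2 and SAMtools, with builds GRCm38 and mm9; of the sites, 99.2% lay within their RefSeq gene in GRCm38.p6. Per the file headers, the authors' all-variant lists hold SAMtools calls with SnpEff annotation, depth, mapping quality and allele read counts. Their VarScan2 lists hold deposited read counts per tissue and a somatic p-value, and their Strelka lists a quality. The filters of the callers are not stated in the sources used here, and lists hold no site under a depth of 11 reads. Lists held from 24915 to 79759 sites, with median depths at coding sites from 45 to 114 reads.

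From these, each site took its annotation of highest impact in a Zfp gene, and was matched between lists by position and alleles. Intervals are exact at 95% and cover counting error only, since reads are not independent molecules. Tests were Fisher's exact test, an exact conditional test and exact two-sided sign-flip permutation tests over 3 animals, with Benjamini-Hochberg adjustment and a threshold of 0.05 (Python 3.11.15, numpy 2.4.6, scipy 1.17.1, matplotlib 3.10.9). Fisher's exact test was tried on simulated reads drawn independently of each other. The exact conditional test was not, and was only checked against Fisher's exact test on a single set of counts. By the labels, marrow and ear of one number are 1 animal's; their deviations over 4444 sites correlated at 0.153, 0.196 and 0.111 in animals 54, 108 and 136. A cluster was 3 or more member genes with gaps up to 1 Mb. The members, lists and tests were chosen with earlier results of these data known. Named were genes with most sites in all 6 samples (up to 6), inherited high-impact sites (up to 8), VarScan2 calls, Strelka calls of high impact or in 2 animals, the 5 lowest and 3 highest median mapping qualities among genes with 5 sites, the 5 with most private sites, and sites passing the tissue test. Other named sites were chosen after their values were seen. The share of private and inherited missense sites in zinc fingers was planned and could not be had without protein sequences. Values of 1 gene that this rule names are not reported here.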

Additional observations from a re-analysis of the deposited data

How the results depend on the processing

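The paired comparison of private marrow and ear sites gave p = 0.7 when the pairing by animal was dropped and tissue labels were permuted over the 6 samples (exact, log2 ratio -0.45), which did not change the call. The mapping quality difference between private and inherited sites turned to 0.917 when private meant listed in 1 of the 6 samples, and ran from -1.12 to 0.625 with 1 animal left out. That between Zfp and other genes turned to 0.0962 with means over sites, and as a share of sites under a quality of 30 it was -2.29 points, with the animals apart at 6.59 (animal 54), -3.68 (animal 108) and -9.78 (animal 136); leaving out animals gave -1 to 0. The Zfp share of protein-altering sites, private minus inherited, ran from -1.30 to 0.51 points with 1 animal left out. VarScan2 calls fell from 11 to 2 at a somatic p-value under 0.01, 4 if also in the marrow's all-variant list and 2 without a variant read in ear, and were 3 to 10 with 1 animal left out. Strelka calls fell from 24 to 15 at a quality of 30 or more and to 1 if also in the marrow's list, and were 11 to 20 with 1 animal left out. Causes were not tested. Apart from that value of 0, all other alternatives kept the direction of each difference, and the marrow-ear site test called 0 Zfp sites under each of its alternatives; no sign-flip test over 3 animals can pass 0.05. The share of missense sites in zinc fingers was not run, for want of protein sequences. With medians near 20 reads, a private site's share is known only broadly.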
